A study of Mus musculus with 12 samples.

Results

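The genes described here carry calcium into and out of mitochondria: Mcu, Micu2, Micu3, Smdt1, Mcur1, Letm1, Slc8b1, Vdac1 and Vdac2. They were chosen by name, 9 of the 51826 entries in the count table. RNA-Seq of poly(A)-selected RNA was done on atria and ventricles of 6 female FvB mice aged 10 weeks, which gave 12 libraries, 3 in each of 4 groups. CUG960 +dox mice carried a tetracycline-responsive transgene with 960 interrupted CUG repeats within human DMPK exons, together with the hemizygous MHCrtTA transgene, which expresses the reverse tetracycline transactivator from a cardiomyocyte promoter. MHCrtTA +dox control mice carried the transactivator alone. Both groups received dox from postnatal day 1, so the transactivator and dox were shared, and the repeat RNA was limited to cardiomyocytes. The control animals bear the numbers V327, V333 and V334, the CUG960 animals V119, V120 and V123, and values are given in that order throughout. Each library held between 116127966 and 160676189 counts.

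Chamber labels were checked against marker genes. In control mice the atrial natriuretic peptide gene Nppa averaged 15900 CPM (counts scaled to a common library size by TMM, a method that lines up the bulk of genes between libraries) in atria and 62.6 CPM in ventricles. The ventricular light chain gene Myl2 averaged 18.0 CPM in atria and 9410 CPM in ventricles, and the ventricular transcription factor gene Irx4 was under 0.1 CPM in every atrial library of both genotypes. The V327 atria held the most Myl2 of the control atria, at 33.5, 8.82 and 11.7 CPM in V327, V333 and V334. The same held for Myl3, at 20.7, 6.09 and 8.93 CPM. In CUG960 mice Nppa averaged 11900 CPM in atria and 154 CPM in ventricles, and Myl2 averaged 9.63 and 9680 CPM. Individual libraries stood apart. The V123 ventricles of the CUG960 group held more of several atrial markers than the V119 and V120 ventricles, with the atrial light chain gene Myl7 at 0.192, 0.304 and 55.9 CPM in V119, V120 and V123, and the sarcolipin gene Sln at 0.213, 0.341 and 18.5 CPM. In control ventricles Myl7 was 8.02, 4.98 and 19.3 CPM. The V334 atria of the control group held more red cell and macrophage markers than the other control atria. The 5 erythroid markers summed to 514, 323 and 2770 CPM in control atria, beside 440, 323 and 352 CPM in CUG960 atria, and the 6 macrophage and leukocyte markers to 241, 207 and 512 CPM, beside 245, 270 and 239 CPM. The number of the 9 genes called is given below with all mice, without V123 and without V334. The human transgene was not among the entries analyzed here, so genotype labels were not checked in this way.

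Calcium released near mitochondria first crosses the outer membrane through voltage-dependent anion channels, encoded by Vdac1, Vdac2 and Vdac3. It then enters the matrix through the uniporter of the inner membrane, whose pore is made by the Mcu protein and needs EMRE, the product of Smdt1, to conduct. MICU2 and MICU3 are calcium-sensing proteins of the intermembrane space. MICU2 helps to keep the pore closed at resting calcium, and MICU3 is known as an enhancer of uptake. MCUR1 is a regulator needed for full uptake, and MCUb is a pore-like subunit that lowers conductance. Efflux runs through the sodium-calcium exchanger NCLX, encoded by Slc8b1, and LETM1 is an inner membrane cation/proton exchanger. In heart muscle, matrix calcium activates dehydrogenases that feed the respiratory chain, and too much of it opens the permeability transition pore.

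Promoter sequences are shown for the pore gene and for the gatekeeper and EMRE genes, which were picked with their levels known. Between genotypes only Micu2 in atria was called among them. The windows hold the 250 bases before the RefSeq start on GRCm38.p6, 5′ to 3′ on the gene's strand. They are chr10:59616693-59616942 (minus strand) for Mcu, chr14:57999263-57999512 (minus strand) for Micu2 and chr15:82345796-82346045 (plus strand) for Smdt1. Capitals mark matches, on either strand, to the CCAAT box (CCAAT), the GC box (GGGCGG) and the cyclic AMP response element (TGACGTCA) or its half-site TGACG, which the full element contains.
Mcu: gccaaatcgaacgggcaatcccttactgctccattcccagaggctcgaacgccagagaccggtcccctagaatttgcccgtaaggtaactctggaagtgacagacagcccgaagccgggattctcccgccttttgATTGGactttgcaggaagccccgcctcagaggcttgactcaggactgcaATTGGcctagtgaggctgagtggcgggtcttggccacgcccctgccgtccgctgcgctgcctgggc
Micu2: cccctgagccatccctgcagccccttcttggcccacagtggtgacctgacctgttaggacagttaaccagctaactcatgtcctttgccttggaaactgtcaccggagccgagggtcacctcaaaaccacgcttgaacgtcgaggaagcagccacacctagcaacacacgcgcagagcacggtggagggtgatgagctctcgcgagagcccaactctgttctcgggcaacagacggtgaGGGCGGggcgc
Smdt1: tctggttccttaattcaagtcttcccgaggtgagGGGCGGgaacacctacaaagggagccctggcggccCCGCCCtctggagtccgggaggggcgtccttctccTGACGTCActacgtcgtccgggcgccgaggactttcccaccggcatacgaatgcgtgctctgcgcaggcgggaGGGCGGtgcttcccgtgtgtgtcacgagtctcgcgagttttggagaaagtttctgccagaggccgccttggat
The Mcu window held 2 CCAAT boxes, both on the other strand, at 115 and 66 bases before the start, and no GC box. The Micu2 window held a single GC box, 11 bases before the start. In the Smdt1 window were 3 GC boxes and a full cyclic AMP response element, 146 bases before the start. Of 32851 mouse promoter windows of this length, 33.8% held a CCAAT box, 32.7% a GC box and 1.55% the full element. Windows were found for 6 of the 9 genes, Letm1, Mcur1 and Vdac1 being the others, and a GC box was present for all but Mcu (for Vdac1, in 1 of its 2 windows). These matches describe letters in a window and not sites at which a factor bound, and their relation to transcript levels was not tested.

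In the gene annotation (GENCODE M21, GRCm38) the 9 genes are protein coding and lie on 7 chromosomes. Mcu spans chr10:59446984-59616692, Micu2 chr14:57916261-57999262, Micu3 chr8:40307458-40386308, Smdt1 chr15:82338959-82349091 and Mcur1 chr13:43538393-43560191. The Smdt1 promoter window shown above lies inside the Smdt1 span, so the RefSeq start used there differs from the outermost GENCODE start. The exchanger genes share a chromosome, Letm1 at chr5:33739673-33782817 and Slc8b1 at chr5:120511168-120534024. The channel genes are at chr11:52360860-52389397 for Vdac1 and chr14:21825238-21845879 for Vdac2. Smdt1 shares 245 of its 1479 exonic bases with Pheta2 on the same strand, so counts of this gene are uncertain to the extent that reads there were divided between them. Vdac2 has a processed pseudogene, Gm7832, of 97.0% identity over 881 bases, which held 3 to 13 counts per library against at least 42974 counts for Vdac2.

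Transcript levels of the machinery covered a wide range. Divided by the length of the exon union, so that genes can be compared with each other, the level in control ventricles was 393 ± 18.1 CPM per kilobase for Vdac1 (SD, n = 3) and 84.1 ± 3.72 for Vdac2. The gatekeeper gene Micu2 followed at 40.4 ± 1.41 CPM per kilobase and the EMRE gene Smdt1 at 34.5 ± 4.27. Letm1 stood at 14.0 ± 0.583 CPM per kilobase and Mcur1 at 8.86 ± 0.164. The pore gene Mcu, at 2.94 ± 0.148 CPM per kilobase, and the efflux gene Slc8b1, at 2.92 ± 0.166, were not separated by their spread. Micu3 was the lowest, at 0.994 ± 0.0597 CPM per kilobase. With the mean length of the coding transcripts in place of the exon union, levels were higher for every gene and Smdt1 (103 ± 12.8 CPM per kilobase) stood above Micu2 (53.5 ± 1.87), so the order of these 2 genes was not settled. Mcu was then at 10.3 ± 0.521 CPM per kilobase and Slc8b1 at 5.74 ± 0.326.

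**Figure D1:**
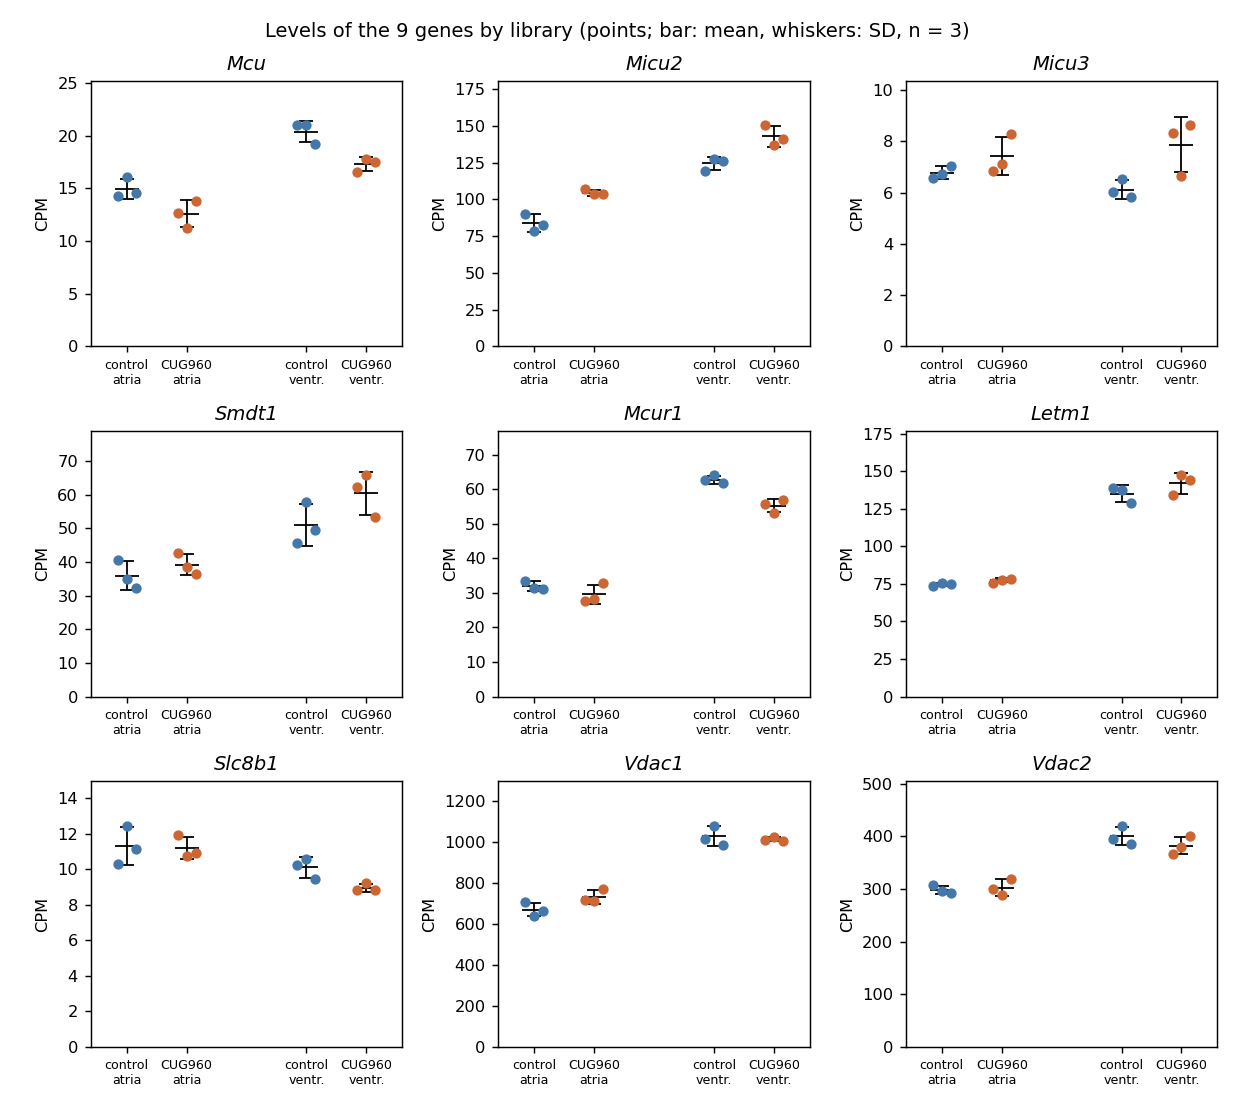
TMM-scaled level (CPM, linear axis from 0) of each of the 9 genes in every library, with the mean (bar) and SD (whiskers) of the 3 mice of a group. Control mice are blue and CUG960 mice orange. Mcu sits lower and Micu2 higher in CUG960 than in control mice within each chamber, and with TMM scaling the ventricular points lie above the atrial points for all genes but Micu3 and Slc8b1; with total counts every ventricular value lay above every atrial value for Mcur1 and Letm1 alone.

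The first question was whether expression of the repeat RNA changed these genes. Changes were small, and Micu2 in atria was the single gene of the 9 that passed an adjusted P value of 0.05 in either chamber (edgeR quasi-likelihood test, Benjamini-Hochberg adjustment over all genes tested). None of the 9 also reached 1.5-fold, the threshold in the study's results, while its methods give a log2 fold change of 1.5. Of all genes tested, 14.6% passed the adjusted P value in atria and 9.94% in ventricles, and 5.49% and 4.75% also reached 1.5-fold. Over the 9 genes the median log2 fold change was 0.056 in atria and -0.0205 in ventricles, beside -0.00883 and -0.00945 over all genes tested. In ventricles, where 0 of the 9 were called by edgeR, 5 had an unadjusted P value under 0.05, as did 25.7% of all genes tested, and DESeq2 also called 0. Without V334, 0 of the 9 were called in either chamber, and without V123 the counts were 1 and 0 as with all mice. With total counts in place of TMM scaling, 2 were called in ventricles, Micu2 (0.31, adjusted P = 0.0272) and Micu3 (0.47, adjusted P = 0.0346), while the median of all genes moved to 0.0991. The lower ventricular levels of Mcu and Mcur1, given below with TMM, were less marked with that scaling.

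The pore gene Mcu was lower in CUG960 mice in both chambers, but not past the threshold. In atria its level was 14.3, 16.0 and 14.6 CPM in control mice, and 12.7, 11.3 and 13.8 CPM in CUG960 mice. In ventricles it was 21.0, 21.0 and 19.2 CPM in control and 16.5, 17.8 and 17.5 CPM in CUG960 mice. In each chamber every CUG960 library was below every control library. The log2 fold change was -0.25 (SE 0.093, 95% interval -0.46 to -0.04, adjusted P = 0.113) in atria and -0.24 (SE 0.085, interval -0.43 to -0.05, adjusted P = 0.114) in ventricles. The difference between these effects was 0.01 (interval -0.25 to 0.27).

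Micu2, whose product is a gatekeeper at the mouth of the pore, was higher in CUG960 mice. Atrial levels were 90.4, 78.7 and 82.7 CPM in control mice and 107, 104 and 104 CPM in CUG960 mice. Ventricular levels were 120, 128 and 126 CPM in control and 150, 137 and 141 CPM in CUG960 mice. The groups did not overlap in either chamber. In atria Micu2 rose by 0.32 on the log2 scale (SE 0.065, interval 0.17 to 0.47, adjusted P = 0.0158), or 24.8% in mean CPM. In ventricles the log2 fold change was 0.20 (SE 0.072, interval 0.04 to 0.36, adjusted P = 0.114). The interaction of chamber and genotype was -0.12 (interval -0.32 to 0.07, adjusted P = 0.659), so a difference between the chambers was not shown. The atrial call was lost when V333, V334 or V119 was left out, with adjusted P values of 0.0683, 0.0568 and 0.0545. The log2 fold changes were then 0.27, 0.31 and 0.30, near the 0.32 with all mice. These fits hold fewer mice and have less power, so a lost call does not single out a mouse.

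Micu3, whose product is best known from brain and skeletal muscle, was among the lowest genes of the set, with 651 to 1216 counts per library. Ventricular levels were 6.02, 6.53 and 5.81 CPM in control mice and 8.34, 6.65 and 8.63 CPM in CUG960 mice, and V120 was only just above the highest control. The log2 fold change was 0.37 (SE 0.126, interval 0.08 to 0.65, adjusted P = 0.101). In a single fit of all 12 libraries the adjusted P value was 0.0499. In atria the groups overlapped, at 6.59, 6.72 and 7.05 CPM in control and 6.86, 7.13 and 8.27 CPM in CUG960 mice, with a log2 fold change of 0.13 (SE 0.099, adjusted P = 0.424).

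Smdt1 values varied more among mice. In ventricles they were 45.5, 57.9 and 49.5 CPM in control and 62.1, 65.7 and 53.3 CPM in CUG960 mice, and the groups overlapped through V333 and V123. The log2 fold change was 0.25 (SE 0.109, adjusted P = 0.192), and in atria it was 0.13 (SE 0.096, adjusted P = 0.411). Mcur1 had values of 62.5, 63.96 and 61.7 CPM in control and 55.6, 53.0 and 56.7 CPM in CUG960 ventricles, which did not overlap. Its log2 fold change was -0.18 (SE 0.068, interval -0.34 to -0.03, adjusted P = 0.122) there and -0.11 (SE 0.078, adjusted P = 0.365) in atria, where the groups overlapped.

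Among the exchanger and channel genes the genotypes were close. Slc8b1 was 10.3, 10.6 and 9.48 CPM in control and 8.81, 9.22 and 8.83 CPM in CUG960 ventricles, with no overlap and a log2 fold change of -0.17 (SE 0.093, interval -0.38 to 0.03, adjusted P = 0.277). In atria its log2 fold change was -0.01 (interval -0.23 to 0.20). Letm1 had log2 fold changes of 0.06 (interval -0.06 to 0.17) in atria and 0.07 (interval -0.09 to 0.24) in ventricles. Vdac1, the most abundant of the 9, had a log2 fold change of 0.13 (SE 0.065, interval -0.02 to 0.28, adjusted P = 0.225) in atria, where control mice were at 707, 640 and 665 CPM and CUG960 mice at 716, 713 and 772 CPM. In ventricles the Vdac1 value was -0.02 (interval -0.19 to 0.15). For Vdac2 the values were 0.02 (interval -0.12 to 0.16) and -0.07 (interval -0.24 to 0.10). These intervals bound the channel and Letm1 changes at well under the 1.5-fold threshold in either direction.

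**Figure D2:**
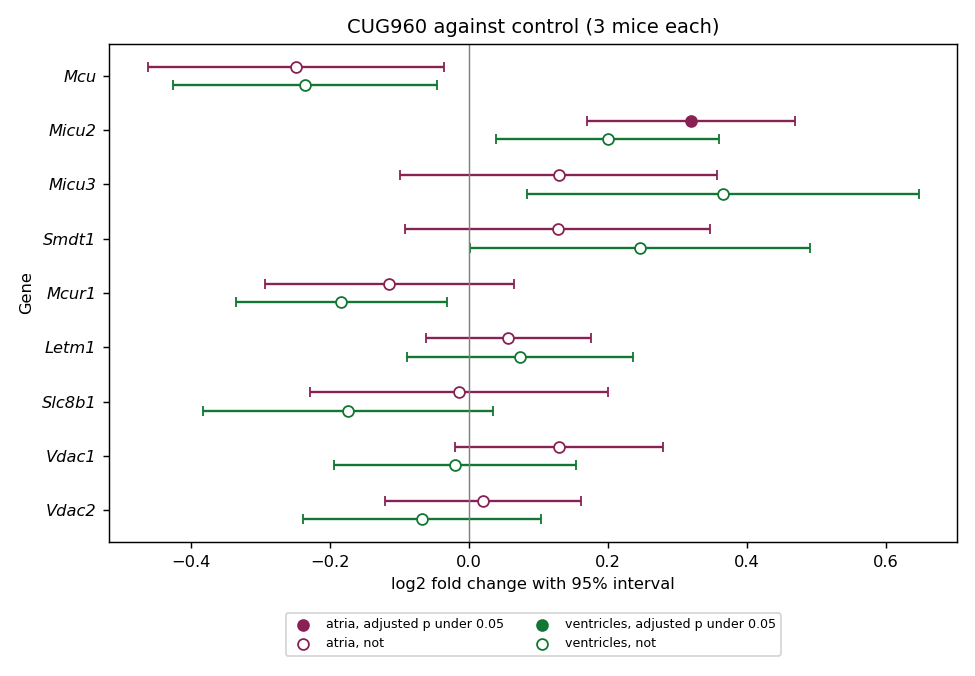
Log2 fold change (CUG960 against control) of each gene with its 95% interval, in atria (purple) and ventricles (green), 3 mice per group, with filled points for an adjusted P value under 0.05. Micu2 in atria, at 0.32, is the single filled point, and Mcu lies at -0.25 and -0.24 with both intervals below 0.

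Counting groups that did not overlap, 4 of the 9 genes were separated in atria (Mcu, Micu2, Letm1 and Vdac1) and 5 in ventricles (Mcu, Micu2, Micu3, Mcur1 and Slc8b1). Among all genes tested, the groups did not overlap for 35.7% in atria and 31.1% in ventricles. None of the 9 genes was called for the interaction of chamber and genotype, where 1.38% of genes tested were called, and adjusted P values lay between 0.579 for Vdac1 and 0.986 for Mcu. By DESeq2 the count was also 0, and 0 of the 9 had an unadjusted P value under 0.05, beside 12.3% of all genes tested.

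Other measures differed between the genotypes as well. The 7 pan-cardiomyocyte markers, led by Myh6, summed to between 49100 and 51400 CPM in control and between 52000 and 52400 CPM in CUG960 atria, and to between 61400 and 64200 and between 62700 and 66600 CPM in ventricles. In atria 2 of them were called higher, the myosin gene Myh6 (0.22, adjusted P = 0.0393) and the phospholamban gene Pln (0.52, adjusted P = 0.017). The gene of the calcium release channel, Ryr2, was called lower in atria (-0.53, adjusted P = 0.0298) and ventricles (-0.67, adjusted P = 0.0148). Of the 7 atrial markers, Nppa fell by 0.42 on the log2 scale in atria and rose by 1.301 in ventricles, Tbx5 was called lower in atria and Bmp10 in ventricles. Of the 6 ventricular markers, Hey2 was called lower in both chambers, Gja1 lower in atria and higher in ventricles, and Irx4 higher in ventricles. The 6 endothelial markers summed to between 540 and 652 CPM in control atria and between 411 and 471 CPM in CUG960 atria, and to between 744 and 875 and between 585 and 633 CPM in ventricles. Pecam1, the most abundant in atria, averaged 234 and 144 CPM there, and Kdr, the most abundant in ventricles, 212 and 155 CPM, and 4 of the 6 markers were called lower in atria and 3 in ventricles. Mitochondrially encoded transcripts made up 19.6% to 20.5% of counts in control ventricles and 15.3% to 18.4% in CUG960 ventricles, and between 10.9% and 12.2% in all atria. With these transcripts left out before scaling, the number of the 9 genes called stayed at 1 in atria and 0 in ventricles. In ventricles 4 of 5 smooth muscle and pericyte markers were also called lower, with sums between 754 and 806 CPM in control and between 602 and 641 CPM in CUG960 mice and Rgs5 the most abundant there. In atria that list was mixed, with sums between 309 and 393 CPM in control and between 296 and 488 CPM in CUG960 mice and Acta2 the most abundant. Tagln, a smooth muscle actin-binding protein gene, was called higher in CUG960 atria (1.21, SE 0.312, adjusted P = 0.0364), Pdgfrb was called lower (-0.38, SE 0.106, adjusted P = 0.0488), and the other 3 markers were not called. In ventricles adipocyte markers, led by Fabp4, summed to between 499 and 638 CPM in control and between 338 and 422 CPM in CUG960 mice. Of 4 tested, 2 were called lower, and Ucp1 was under 0.1 CPM in CUG960 ventricles. Nearly all of these sums was Fabp4, which averaged 579 and 381 CPM, so they follow that gene and are not a measure of adipocyte content. In atria the adipocyte markers summed to between 128 and 177 and between 99.3 and 137 CPM. There 0 of 4 tested were called, with a median log2 fold change of -1.06. V333 was the control mouse that stood apart in Adipoq, Plin1 and Cidec, though not in Fabp4. Adipoq was 1.48, 5.11 and 1.14 CPM in control atria and between 0.677 and 1.65 CPM in CUG960 atria, so this median leaned on V333. Fibroblast markers summed to between 2220 and 2590 CPM in control and between 1870 and 2190 CPM in CUG960 atria, with 3 of 7 called lower, and 0 of 7 were called in ventricles. The skeletal muscle list, led by Mb, the myoglobin gene, which heart muscle also expresses, as it does Ckm, summed to between 6540 and 6900 CPM in control and between 4270 and 5250 CPM in CUG960 atria. Of its 4 tested genes 3 were called lower in atria (Mb, Ckm and Tnnt3) and 0 in ventricles, where the sums were between 17100 and 20200 and between 14700 and 18000 CPM. The erythroid list had a median log2 fold change of -1.71 in atria with 0 of 5 called, and V334 was the control mouse that stood apart in it. The part of these markers in the results for the 9 genes was not tested. In bulk tissue, fewer cells of a type and less RNA per cell cannot be told apart.

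Ratios of 2 genes within a library do not depend on how libraries are scaled. They were taken on counts, without division by length, so each ratio can be compared between libraries but not with another ratio. In atria there were 6.34, 4.91 and 5.68 Micu2 counts per Mcu count in control mice and 8.44, 9.18 and 7.51 in CUG960 mice. In ventricles the ratio was 5.70, 6.09 and 6.58 in control and 9.09, 7.72 and 8.04 in CUG960 mice. Thus all 6 CUG960 libraries were above all 6 control libraries. The mean ratio was 5.64 ± 0.713 in control and 8.38 ± 0.834 in CUG960 atria, and 6.13 ± 0.441 and 8.29 ± 0.718 in ventricles (SD, n = 3). The log2 difference was 0.57 in atria and 0.44 in ventricles, each with an exact two-sided permutation P = 0.1, the smallest that 3 mice against 3 allow, and 0.171 after adjustment over the 12 ratio tests between genotypes. These tests cannot reach 0.05.

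Micu3 per Mcu did not overlap either, with 0.455 ± 0.0326 in control and 0.591 ± 0.0465 in CUG960 atria and 0.300 ± 0.0123 and 0.457 ± 0.0719 in ventricles (SD, n = 3). The CUG960 ventricle of lowest ratio, V120 at 0.374, was above the highest control ventricle, at 0.311. Smdt1 per Mcu was 2.50 ± 0.302 in control and 3.50 ± 0.395 in CUG960 ventricles, without overlap, and overlapped in atria. Slc8b1 per Mcu was 0.755 ± 0.0292 in control and 0.895 ± 0.0899 in CUG960 atria, without overlap, and overlapped in ventricles (0.496 ± 0.00824 and 0.518 ± 0.0141). Micu3 per Micu2 overlapped in both chambers. Vdac2 per Vdac1 was 0.446 ± 0.0153 in control and 0.413 ± 0.00716 in CUG960 atria, without overlap, and overlapped in ventricles. All of these share their P value limit with the Micu2 ratio. The ratios to Mcu share a denominator that was lower in CUG960 mice, though not called, at log2 fold changes of -0.25 and -0.24. They are thus not independent of each other. Slc8b1 alone was at -0.01 in atria. The share of ratios without overlap among other gene pairs was not determined.

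**Figure D3:**
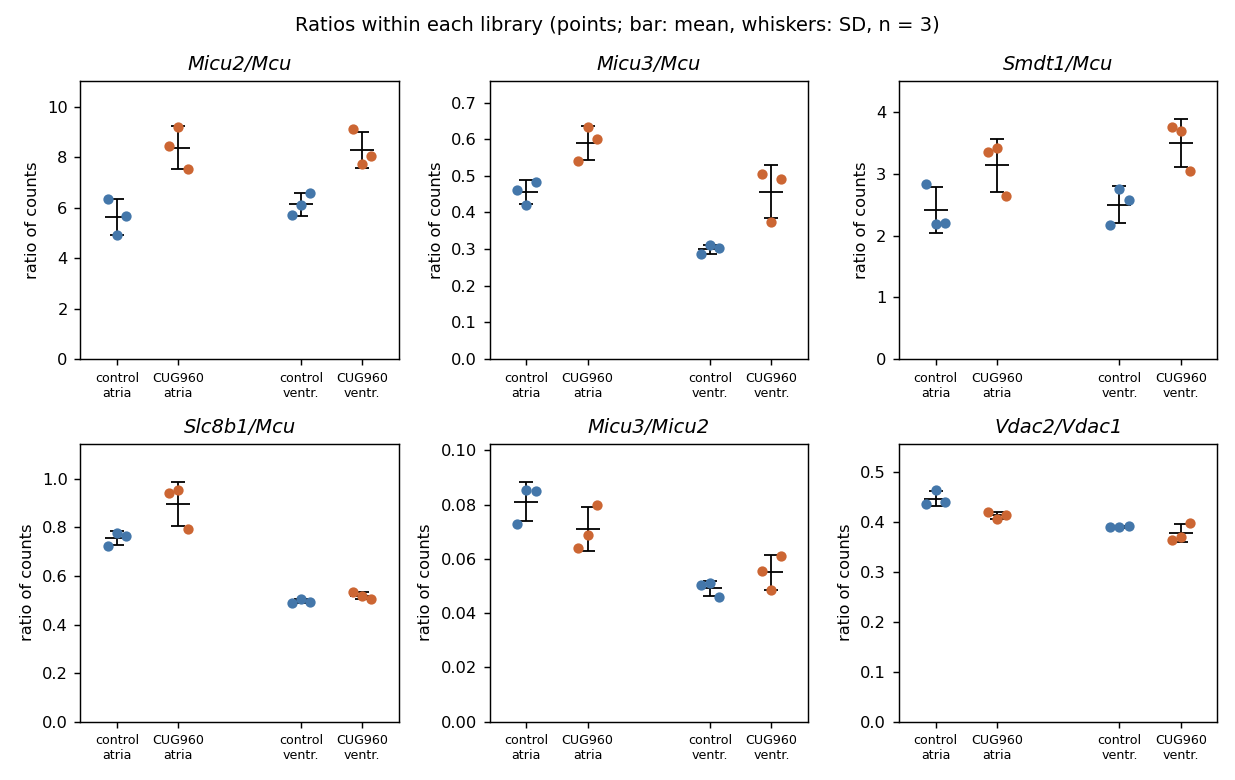
Ratio of the counts of 2 genes in each library (linear axis from 0), with mean (bar) and SD (whiskers) of the 3 mice of a group, control in blue and CUG960 in orange. Micu2/Mcu lies between 4.91 and 6.58 in control libraries and between 7.51 and 9.18 in CUG960 libraries, and Slc8b1/Mcu is lower in ventricles than in atria in every mouse.

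The second question was how the chambers differ, with both chambers taken from the same animals. The fits that follow did not pair the chambers of a mouse. With mouse as a block no call of the 9 genes changed, and the ratio tests between chambers were paired by mouse. After TMM scaling, 7 of the 9 genes were higher in ventricles than in atria of control mice and 0 were lower, while 55.7% of all genes tested were called, 27.5% higher and 28.3% lower. In CUG960 mice the same 7 genes were higher and Slc8b1 was lower, while 54.2% of genes tested were called, 27.5% higher and 26.7% lower. At least 1.5-fold were Mcur1, Letm1 and Vdac1 in control and Smdt1, Mcur1 and Letm1 in CUG960 mice, against 34.9% and 33.6% of genes tested. The chambers did not overlap for 8 of the 9 genes in either genotype (64.6% and 62.5% of genes tested). Over the 9 genes the median log2 fold change was 0.51 in control and 0.47 in CUG960 mice, beside -0.0326 and -0.00896 over all genes tested.

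These values depend on scaling. TMM factors ran from 1.12 to 1.19 in atria and from 0.815 to 0.907 in ventricles, and with total counts alone the median of all genes moved to -0.486 in control and -0.40 in CUG960 mice. The median of the 9 genes was then 0.0528 and 0.0812, and 5 and 3 of them were called. Fold changes below are therefore relative to the bulk of genes, and Mcur1 and Letm1 were the genes that stayed called higher with total counts in both genotypes. With that scaling Mcu was at -0.01 and 0.08 in control and CUG960 mice, and Vdac2 at -0.03 and -0.04. Without V334, 7 of the 9 were called in control mice as before, and without V123, 7 rather than 8 in CUG960 mice, where Slc8b1 lost its call. Leaving out mitochondrially encoded transcripts before TMM scaling changed no call (7 and 8 of the 9).

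Mcur1 and Letm1 had the largest chamber differences of the 9 by TMM. Mcur1 was 33.6, 31.3 and 31.1 CPM in control atria and 62.5, 63.96 and 61.7 CPM in ventricles of the same mice, which is 0.98 as a log2 fold change (SE 0.061, adjusted P = 4.52e-06). In CUG960 mice it was 27.5, 28.4 and 32.8 CPM in atria and 55.6, 53.0 and 56.7 CPM in ventricles, with a fold change of 0.91 on the log2 scale (SE 0.084). Letm1 was 73.3, 75.3 and 74.6 CPM in control atria and 139, 137 and 129 CPM in ventricles, with a log2 fold change of 0.86 (SE 0.059, adjusted P = 7.19e-06). In CUG960 mice its log2 fold change was 0.89 (SE 0.065). With total counts Mcur1 stood at 0.52 in both genotypes, and Letm1 at 0.41 in control and 0.49 in CUG960 mice.

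The uniporter genes Mcu, Micu2 and Smdt1 had smaller differences. Mcu had log2 fold changes of 0.45 (SE 0.080, adjusted P = 0.00154) in control and 0.47 (SE 0.095, adjusted P = 0.00252) in CUG960 mice, and by TMM was higher in the ventricles of 6 of 6 mice. With total counts it was higher in the ventricles of 2 of 6 mice and was called in neither genotype. Micu2 had values of 0.57 (SE 0.070) and 0.46 (SE 0.065), and Smdt1 of 0.51 (SE 0.113) and 0.64 (SE 0.095), each also higher in 6 of 6 mice by TMM. With total counts Micu2 and Smdt1 were each higher in 5 of 6 mice, and neither was called in either genotype. Their share relative to Mcu was similar between chambers: the log2 difference of ventricles and atria was 0.055 ± 0.215 for Micu2/Mcu (SD, n = 6, exact sign-flip permutation P = 0.531) and 0.107 ± 0.254 for Smdt1/Mcu (P = 0.375 by the same exact test). Those spreads are wide, so equal ratios are not shown.

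Micu3 and Slc8b1 did not share this pattern. Micu3 had a log2 fold change of -0.14 (SE 0.093, adjusted P = 0.221) in control and 0.10 (SE 0.129, adjusted P = 0.546) in CUG960 mice, and by TMM was higher in the ventricles of 2 of 6 mice. With total counts it was higher in the ventricles of 0 of 6 mice, was called lower in control mice (-0.60, adjusted P = 0.000523) and was at -0.295 (adjusted P = 0.0648) in CUG960 mice. Slc8b1 was higher in atria in 6 of 6 mice, at 10.3, 12.5 and 11.2 CPM in atria and 10.3, 10.6 and 9.48 CPM in ventricles of control mice, and at 11.9, 10.8 and 10.9 and 8.81, 9.22 and 8.83 CPM in CUG960 mice. The log2 fold change was -0.16 (SE 0.097, adjusted P = 0.202) in control and -0.31 (SE 0.087, adjusted P = 0.0138) in CUG960 mice, and the latter was not called without V119 (-0.25, adjusted P = 0.117) or without V123 (-0.33, adjusted P = 0.0636). With total counts Slc8b1 was called lower in both genotypes, at -0.62 and -0.70. A difference between the genotypes was not shown (interaction -0.16, interval -0.43 to 0.11).

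Ratios, which no scaling can move, separated these 2 genes from the uniporter genes. Slc8b1 per Mcu was lower in ventricles than in atria in 6 of 6 mice, by 0.69 ± 0.125 on the log2 scale (mean and SD), from 0.722, 0.778 and 0.766 to 0.489, 0.505 and 0.494 in control mice and from 0.940, 0.954 and 0.792 to 0.533, 0.518 and 0.504 in CUG960 mice. The exact two-sided sign-flip permutation test gave P = 0.0313, the smallest that 6 mice allow, and 0.0469 after adjustment over 6 ratios. Micu3 per Mcu fell by 0.49 ± 0.261 and Micu3 per Micu2 by 0.54 ± 0.244 on the log2 scale, each in 6 of 6 mice with the same exact permutation P values. Vdac2 per Vdac1 fell by 0.16 ± 0.0667 on the log2 scale, again in 6 of 6 mice with those P values by the exact permutation test. In the ventricle of every mouse there were thus fewer counts of the efflux gene per count of the pore gene than in its atria.

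**Figure D4:**
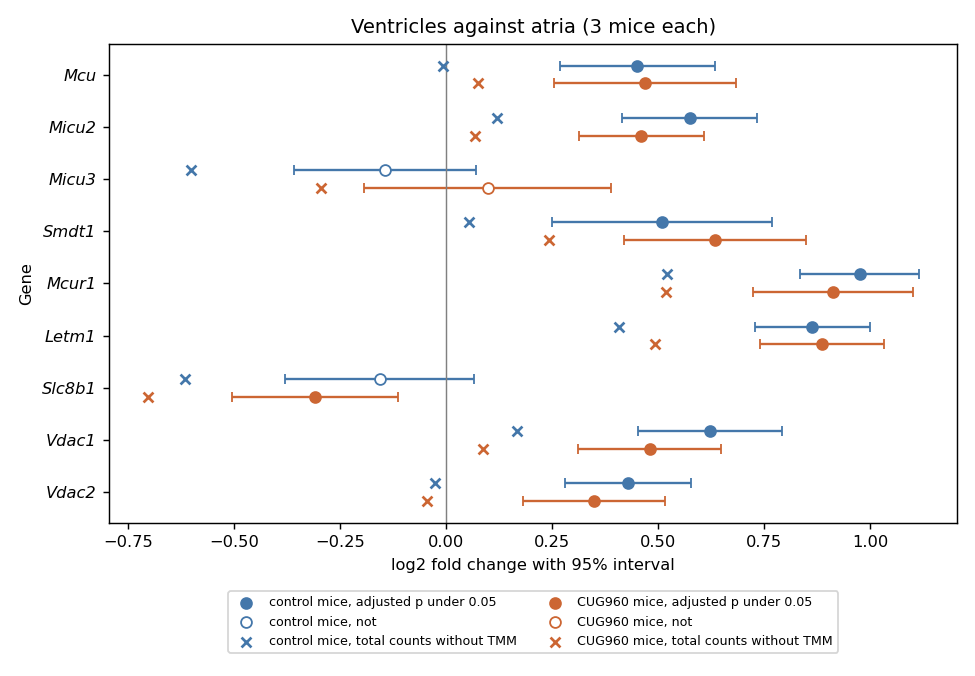
Log2 fold change (ventricles against atria) of each gene with its 95% interval, in control (blue) and CUG960 mice (orange), 3 mice each, filled for an adjusted P value under 0.05. Crosses give the value with total counts in place of TMM scaling, which places every gene lower, Mcur1 at 0.52 and Mcu in control mice at -0.01.

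Both outer membrane channels were higher in ventricles by TMM. With total counts Vdac1 was called higher in control mice (0.17, adjusted P = 0.0316) and not in CUG960 mice (0.087, adjusted P = 0.335), and Vdac2 was called in neither. Vdac1 was 707, 640 and 665 CPM in control atria and 1018, 1082 and 989 CPM in ventricles, with log2 fold changes of 0.62 (SE 0.074, adjusted P = 0.000164) in control and 0.48 (SE 0.075) in CUG960 mice. Vdac2 was 307, 296 and 292 CPM in control atria and 396, 421 and 387 CPM in ventricles, with log2 fold changes of 0.43 (SE 0.065) and 0.35 (SE 0.074). The TMM-scaled atrial and ventricular values did not overlap for either gene.

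The rest of the uptake system was read from a list of 10 further genes: uniporter subunits and partners, and the proteases that process EMRE. In CUG960 ventricles 0 of the 10 were called by edgeR and 0 had an unadjusted P value under 0.05 (25.7% of all genes tested). In CUG960 atria Slc25a24, a calcium-regulated ATP-Mg/phosphate carrier, was the single gene called (14.6% of all genes tested were), and fell by 0.40 on the log2 scale (SE 0.075, adjusted P = 0.012). Mcub was low throughout, from 31 to 115 counts per library, with log2 fold changes of -0.02 (SE 0.26) and 0.08 (SE 0.28) between genotypes.

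Between the chambers of control mice 5 of these 10 genes were higher in ventricles and 4 lower (27.5% and 28.3% of all genes tested), with a median of 0.15. In CUG960 mice 5 were higher and 3 lower (27.5% and 26.7% of all genes tested), with a median of 0.209. Phb2, a prohibitin of the inner membrane, had log2 fold changes of 1.16 (SE 0.074) and 0.96 (SE 0.092), and Afg3l2, a subunit of the m-AAA protease that degrades unassembled EMRE, of 0.99 (SE 0.057) in control mice, and was called higher in CUG960 mice too. Mcub, by contrast, was lower in ventricles, at -0.91 (SE 0.284, adjusted P = 0.025) and -0.80 (SE 0.243, adjusted P = 0.021).

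Other proposed routes and the permeability transition pore made up a list of 9 genes, of which 1 was called in CUG960 mice in each chamber, Ucp2. The shares of all genes tested were 14.6% in atria and 9.94% in ventricles. Ucp2, an inner membrane carrier of the uncoupling protein family that is also abundant in immune cells, fell from 440 ± 51.4 to 227 ± 63.6 CPM in atria and from 93.5 ± 12.3 to 53.2 ± 16.0 CPM in ventricles (SD, n = 3). Its log2 fold changes were -0.96 (SE 0.193, adjusted P = 0.015) and -0.81 (SE 0.187, adjusted P = 0.027). Macrophage and leukocyte markers summed to between 207 and 512 CPM in control atria and between 239 and 270 CPM in CUG960 atria, with Lyz2 the most abundant and 0 of 6 called in either chamber, and their part in the Ucp2 result was not tested. Between chambers, 6 of the 9 genes were higher in ventricles and 2 lower in control mice (27.5% and 28.3% of all genes tested), and 5 and 2 in CUG960 mice (27.5% and 26.7%). Ppif, which encodes the cyclophilin D of the transition pore, was higher by 1.63 (SE 0.078) and 1.59 (SE 0.066) on the log2 scale, and Slc25a4, the heart adenine nucleotide translocase, by 0.77 (SE 0.1004) and 0.85 (SE 0.091). Ucp2 was lower in ventricles, at -2.23 (SE 0.119) and -2.08 (SE 0.251).

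Contact sites between mitochondria and the reticulum bring calcium release next to the channels, and their list held 15 genes. In CUG960 atria 1 was higher and 2 lower: the IP3 receptor genes Itpr1 (0.28, SE 0.077, adjusted P = 0.045) and Itpr2 (-0.48, SE 0.118, adjusted P = 0.032) and the mitophagy receptor gene Fundc1 (-0.26, SE 0.073, adjusted P = 0.047). In CUG960 ventricles 0 were higher and 2 lower, Fundc1 (-0.41, SE 0.080, adjusted P = 0.014) and Bcap31 (-0.32, SE 0.077, adjusted P = 0.032), which encodes a reticulum membrane chaperone. None of these reached 1.5-fold. Over all genes tested, 14.6% were called in atria and 9.94% in ventricles, so the counts of this list were near those shares. Between chambers 7 genes were higher in ventricles and 2 lower in either genotype. The shares of all genes tested were 27.5% higher and 28.3% lower in control mice, and 27.5% and 26.7% in CUG960 mice. Mfn1, a fusion GTPase of the outer membrane, was higher by 0.95 (SE 0.066) and 1.12 (SE 0.071) on the log2 scale, and Hspa9, the chaperone that bridges the anion channel and the IP3 receptor, by 0.95 (SE 0.067) and 0.81 (SE 0.075).

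Enzymes and carriers that respond to calcium were represented by 11 genes. Slc25a13, the calcium-binding aspartate/glutamate carrier citrin, rose in CUG960 mice from 48.5 ± 5.33 to 81.2 ± 5.35 CPM in atria (log2 fold change 0.74, SE 0.088, adjusted P = 0.0018) and from 178 ± 7.95 to 224 ± 4.13 CPM in ventricles (0.33, SE 0.070, adjusted P = 0.02). The interaction was -0.42 (SE 0.111, adjusted P = 0.11). Pdp1, the calcium-activated pyruvate dehydrogenase phosphatase, rose in both chambers, by 0.36 (SE 0.083, adjusted P = 0.025) and 0.47 (SE 0.110, adjusted P = 0.028). In atria Pdpr, the regulatory subunit of that phosphatase, fell by 0.54 (SE 0.126) and the glycerol phosphate dehydrogenase gene Gpd2 fell by 0.40 (SE 0.091) on the log2 scale. In total 2 genes were called higher and 2 lower in atria, and 2 higher and 0 lower in ventricles, while 14.6% and 9.94% of all genes tested were called. Between chambers 9 of the 11 were higher in ventricles and 0 lower in either genotype, beside 27.5% of all genes tested called higher in each. Slc25a13 was at 1.89 (SE 0.089) and 1.47 (SE 0.072) and the isocitrate dehydrogenase subunit gene Idh3b at 1.59 (SE 0.091) and 1.44 (SE 0.075).

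A list of 14 genes for general mitochondrial content gave a scale for the chamber differences. By TMM all 14 were called higher in ventricles in either genotype, beside 27.5% of all genes tested in each. Their median log2 fold change was 0.855 in control and 0.723 in CUG960 mice, above the medians of 0.51 and 0.47 for the 9 calcium genes. Total counts moved the median of all genes to -0.486 and -0.40, so these values too are relative to the bulk of genes. Sod2, the matrix superoxide dismutase, was at 1.26 (SE 0.074) and 1.15 (SE 0.069), citrate synthase gene Cs at 1.05 (SE 0.064) and 1.02 (SE 0.089), and the cristae organizer gene Immt at 0.96 (SE 0.071) and 0.92 (SE 0.069). Between genotypes 0 of the 14 were called in atria or ventricles, with medians of 0.00151 and -0.062. No test was made of one list against another.

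**Figure D5:**
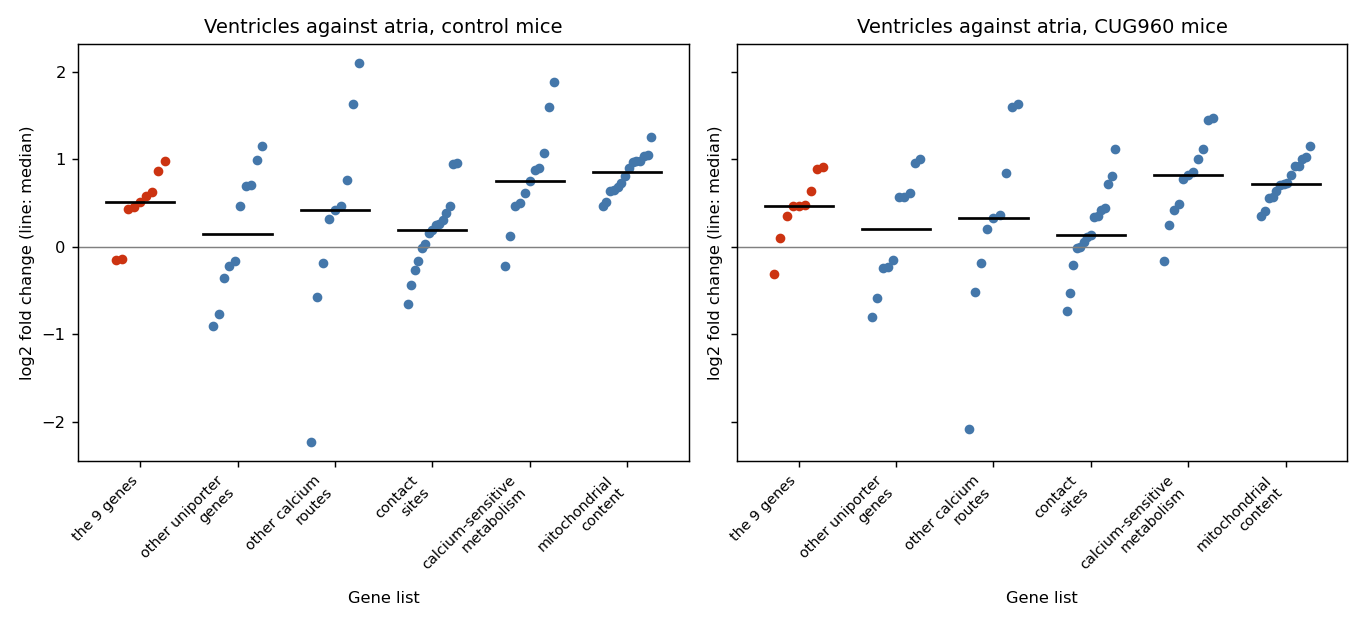
Log2 fold change (ventricles against atria, TMM scaling) of each gene in 6 lists, for control and CUG960 mice, with the median of a list as a black line and the 9 calcium uptake and release genes in red. The median of the 9 genes (0.51 and 0.47) lies below that of the mitochondrial content list (0.855 and 0.723).

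Cell type markers also differed between chambers. Pan-cardiomyocyte markers summed to between 49100 and 51400 CPM in control atria and between 61400 and 64200 CPM in control ventricles, with Myh6 the most abundant. Fibroblast markers, led by Dcn, summed to between 2220 and 2590 CPM in control atria and between 1330 and 1550 CPM in control ventricles, and macrophage and leukocyte markers to between 207 and 512 and between 90.4 and 114 CPM. Of the 5 smooth muscle and pericyte markers 4 were called higher and 1 lower in control ventricles, with sums between 309 and 393 CPM in atria and between 754 and 806 CPM in ventricles. Of the 6 endothelial markers 4 were called higher and 1 lower, with sums between 540 and 652 and between 744 and 875 CPM. Adipocyte markers summed to between 128 and 177 and between 499 and 638 CPM, with 1 of 4 tested called higher and a median log2 fold change of -0.666 over these 4. Nearly all of these sums was Fabp4, which averaged 143 CPM in control atria and 579 CPM in control ventricles. The negative median rested on the V333 atria: Adipoq was 1.48, 5.11 and 1.14 CPM in control atria and 1.67, 1.04 and 1.63 CPM in control ventricles. Erythroid markers summed to between 323 and 2770 and between 1840 and 2910 CPM, with 1 of 5 called higher. The skeletal muscle list summed to between 6540 and 6900 and between 17100 and 20200 CPM, with 3 of 4 tested genes called higher (Acta1, Mb and Ckm) and Tnnt3 called lower. Skeletal muscle myosin genes Myh1 and Myh4 were under 0.1 CPM in every library. The part of cell makeup in the chamber differences was not tested.

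Across the 12 libraries, the genes whose log2 CPM followed Mcu most closely, among 10446 genes that averaged 5 CPM or more, were Eral1 (Pearson r = 0.974), Myadml2 (0.973) and Inpp1 (0.970). For Micu3 they were Zmym1 (0.933), Nol11 (0.875) and Nectin3 (0.871), and for Slc8b1 Slc29a1 (0.944), Plekhn1 (0.937) and Zc3h7a (0.907). The libraries share chamber, genotype and mouse, so these values describe a likeness of pattern. After group means were subtracted, r was 0.686, 0.725 and 0.630 for the Mcu genes, 0.835, 0.731 and 0.662 for the Micu3 genes and 0.771, 0.776 and 0.531 for the Slc8b1 genes, in the order given.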

How the data were processed

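RNA was sequenced from 12 libraries. Per the study's methods, the authors aligned reads to mm10 (GRCm38), counted reads per gene with RSEM 1.3.1. The deposited table of 51826 entries (92 repeat a symbol and were kept apart) holds whole numbers whose totals differ between libraries, and these were taken to be expected counts rounded to whole numbers. RSEM divides reads shared by several genes. All columns were used.

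Each comparison was fitted on the whole table with edgeR 4.0.16 (R 4.3.3): filterByExpr, TMM scaling and the quasi-likelihood test of glmQLFit and glmQLFTest. The main fits, the interaction included, held no term for mouse. P values were adjusted by Benjamini-Hochberg over all genes tested. Genes with adjusted P under 0.05 were called, whatever their fold change, and all 9 genes passed the filter on low counts in every comparison. The study used DESeq2 for its own comparisons, and DESeq2 1.42.0 was an alternative here. The others were RLE and upper quartile scaling, total counts without TMM (added after the data were seen), mitochondrially encoded transcripts left out, no filter, at least 10 counts in every library, a single fit of 12 libraries, mouse as a block, each mouse left out, and the coding transcript length. Ratios were tested by exact permutation. Steps were tested on simulated data. Intervals are 95% intervals of the fit.

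Atria and ventricles came from the same mice by their labels. After group means were subtracted, chambers of the same mouse correlated at r between 0.0454 and 0.320, and those of different mice at r between -0.386 and 0.155. Replicates differed by 41.3 to 122 times counting noise (chi-square per degree of freedom), so none was a duplicate. Separate animals gave the replicates of a group.

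The 9 genes and the lists were chosen with earlier results of these data known. Beyond the 9, a list gene was named if it was called at 1.5-fold or more between genotypes, or had one of the smallest P values between chambers; Mcub, Slc25a24, Itpr1, Itpr2, Fundc1, Bcap31, Pdp1, Pdpr and Gpd2 were named after their values were seen. Gene positions, lengths and overlaps come from GENCODE M21, a later release than the one the authors counted on, and promoter windows from RefSeq on GRCm38.p6. Gene-level counts do not show splicing. A result that these steps gave is not reported here.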

Additional observations from a re-analysis of the deposited data

How the results depend on the processing

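Each of the 9 genes had at least 651 counts per library. The SD between the 3 mice of a group was 1.0% to 13.6% of the mean, beside a counting error of 0.269% to 3.87%, and was below the counting error in 1 of 36 combinations of gene and group (Slc8b1 in CUG960 ventricles). With total counts without TMM (chosen after seeing the data), the number of the 9 genes called was 2 for CUG960 against control in ventricles and 3 for ventricles against atria in CUG960 mice, against 0 and 8. With that scaling the sign changed for 7 values. Between genotypes Slc8b1 was at 0.0236 in atria, and Vdac1 at 0.0885 and Vdac2 at 0.0406 in ventricles. Between chambers Mcu was at -0.00649 and Vdac2 at -0.0261 in control mice, and Micu3 at -0.295 and Vdac2 at -0.0446 in CUG960 mice. The single fit of 12 libraries called 1 of the 9 genes in ventricles between genotypes, Micu3. DESeq2 called 652 genes in all for the interaction, against 253.

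Leaving out each mouse in turn gave 0 to 1 of the 9 genes called and 1235 to 2584 of all genes for atria between genotypes (2573 with all mice), 784 to 1347 of all genes for ventricles (1680), and 74 to 131 for the interaction (253). Signs changed among log2 values that were not called. Between genotypes these were Slc8b1 in atria (-0.0842 to 0.0606), Vdac2 in atria (-0.0258 to 0.0525) and Vdac1 in ventricles (-0.0464 to 0.0180). For the interaction they were Mcu (-0.0832 to 0.0729), Smdt1 (-0.0522 to 0.250) and Letm1 (-0.0157 to 0.0477). The mouse as a block changed no call of the 9 genes (7 and 8 called between chambers, 0 for the interaction) and called 9739 and 9729 genes in all in the chamber comparisons. Unpaired exact permutation of 6 against 6 left the ratio calls as they were. RLE and upper quartile scaling, both filters and leaving out mitochondrially encoded transcripts changed no call of the 9 genes.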
